A study of Mus musculus with 19 samples.

Results

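The 10 genes described here belong to the Notch pathway: the ligands Dll1, Dll3 and Jag1, the receptors Notch1, Notch2 and Notch3, and the effectors Hes1, Hes5, Hey1 and Hey2. Open chromatin at these genes was read out by ATAC-seq, a method whose transposase inserts sequencing adapters where DNA is accessible. A peak was taken as a member when its centre lay in the body of one of these genes or within 20 kb of either end (RefSeq gene limits on GRCm38, the assembly also known as mm10). This rule gave 78 of the 90154 peaks in the deposited table, of which 41 lay in a gene body and 37 in a flank, and every one of the 78 passed the filter on low values. Notch1 had 20 peaks, Notch2 12, Notch3 8, Hes5 8, Jag1 7, Dll1 6, Dll3 6, Hes1 6, Hey1 3 and Hey2 2. Gene limits only were used, so exons and introns were not told apart.

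The cells were primary neural stem cells taken at embryonic day 14 from the ventricular zone of individual wild-type C57BL/6J brains and grown in EGF medium as free-floating neurospheres (NSPs), the undifferentiated group (3 libraries). Serum in place of EGF started their differentiation towards astrocytes, sampled without TNF after 24 h (3 libraries), 72 h (3 libraries) and 1 week (4 libraries). In parallel, cells differentiating in serum with 50 ng/ml TNF were sampled after 24 h (3 libraries) and 72 h (3 libraries), and no TNF group was labelled at 1 week. The labels do not say which libraries came from separate brains or cultures, so p-values measure the spread between libraries, which may be technical. These are primary cultures that can hold several cell types, and they contain no purified astrocytes.

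Notch signalling passes between neighbouring cells. A ligand of the Delta-like or Jagged family on a cell binds a Notch receptor on the next, gamma-secretase then cuts the receptor, and its intracellular part enters the nucleus, joins the DNA-binding protein RBPJ and switches on Hes and Hey genes. The Hes and Hey proteins are transcriptional repressors that hold back neuronal differentiation and keep neural stem cells undifferentiated, and Notch signalling also favours the astrocyte fate later in development. TNF, an inflammatory cytokine, acts through its receptors on NF-kappa-B, a family of factors that bind the kappa-B motif.

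Promoter sequences are shown for Hes5 and Hey2, since they hold the letters GTGGGAA bound by RBPJ, and for Notch2, since it holds a kappa-B motif and the TNF comparison bears on it. RefSeq promoter windows (GRCm38.p6, 250 bases before to 50 bases after the start) were found for 8 of the 10 genes, in 9 windows, and not for Hes1 and Hey1. GTGGGAA, searched on both strands, lay in the windows of Hes5 and Hey2 and in 6.38% of all 32851 windows. The kappa-B motif lay in the Notch2 window and in 5.81% of all windows. All the bases printed lie inside the accessible peak at the start of their gene, and capitals mark the motif, which on the other strand reads TTCCCAC for RBPJ.
Hes5, chr4:154960686-154960715, plus strand, 237 to 208 bases before the start: gggcgagcgcgTTCCCACagcccggacatt
Hes5, chr4:154960829-154960858, plus strand, 94 to 65 bases before the start: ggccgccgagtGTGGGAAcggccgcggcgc
Hey2, chr10:30842784-30843033, minus strand, 250 bases ending at the start: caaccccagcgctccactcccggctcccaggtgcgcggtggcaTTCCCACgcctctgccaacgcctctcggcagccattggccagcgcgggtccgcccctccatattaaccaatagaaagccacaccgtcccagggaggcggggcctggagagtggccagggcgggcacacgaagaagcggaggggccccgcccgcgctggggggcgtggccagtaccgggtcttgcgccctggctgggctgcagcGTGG
Notch2, chr3:98013288-98013537, plus strand, 250 bases ending at the start: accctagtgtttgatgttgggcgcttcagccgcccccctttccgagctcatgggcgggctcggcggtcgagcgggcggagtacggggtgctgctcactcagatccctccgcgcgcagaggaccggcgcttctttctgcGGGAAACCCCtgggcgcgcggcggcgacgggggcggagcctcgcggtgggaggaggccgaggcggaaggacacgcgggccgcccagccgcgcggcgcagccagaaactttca
The Hes5 matches lay 226 to 220 and 83 to 77 bases before the start, and a Hey2 match lay 207 to 201 bases before it. The GTGG at the end of the Hey2 stretch opens another match that runs across the start. The Notch2 match lay 112 to 103 bases before the start. The E-box letters CACGTG (7.15% of all windows) and the palindromic NFI motif (0.0365%) were in none of the 9 windows, and the AP-1 letters TGANTCA (7.81%) were in 1 window, that of another start of Dll1. The gene record of Hes5 begins at base 154960626, so both Hes5 stretches lie inside the annotated gene, ahead of the start of the window used here, and may be transcribed. These matches are descriptions of sequence, and no binding was measured.

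Values are reads in a peak divided by a size factor of the library, called normalised reads here. Read totals in peaks ran from 28636739 to 39349111 in the NSP libraries and from 9640256 to 25165008 in the other 16. Member peaks held 3 to 3978 reads in a library. Their median level over the group means was 204 normalised reads, against 86.0 for all peaks. NSP replicate 1 stood apart, with Spearman correlations of 0.926 and 0.916 with the other NSP libraries, which correlated at 0.983 with each other, so NSP comparisons are also given without it. The names of the 10 libraries at 72 h, 72 h with TNF and 1 week carry a tag that the other 9 lack, so 72 h against 24 h, and 1 week against NSPs, cannot be told apart from that tag. Defining markers were read from the peak nearest to either end of their gene and within 1 kb of it, so some may lie away from the gene start. The sum over 4 of 5 NSP markers, Pax6 having no such peak, ran from 2990 to 3100 in NSPs, 1956 to 2250 at 24 h, 1876 to 2178 at 72 h and 2672 to 2774 at 1 week. The sum over 6 of 7 astrocyte markers, Aqp4 having none, ran from 1353 to 1507 in NSPs, 1404 to 1658 at 24 h, 1560 to 1671 at 72 h and 1161 to 1308 at 1 week. Those 6 moved in different directions, so the sum hides changes. Gfap had means of 108 normalised reads in NSPs, 489 at 24 h, 529 at 72 h and 258 at 1 week. From NSPs to 1 week S100b went from 562 to 178 and Slc1a3 from 251 to 330. The sum over 2 of 5 oligodendrocyte lineage markers, Mbp, Mog and Sox10 having none, went from 1436 to 1755 in NSPs to 443 to 477 at 72 h. In these bulk libraries fewer cells with a site open and less signal per cell cannot be told apart, and the part of a change in cell mixture in the results below was not tested.

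Accessibility at the Notch genes was mostly lower after the cells left the NSP state: at 24 h and at 1 week more of their peaks were below NSPs than above. Differences are on the scale of log2(normalised reads + 1), given with their standard error (SE), and a peak was called at an adjusted p under 0.05 by limma over 88919 peaks. At 24 h, 39 of the 78 peaks were lower than in NSPs and 13 were higher, while 23.0% of all peaks were lower and 24.2% higher. The median difference was -0.31 over the members and -0.07 over all peaks. From 24 h to 72 h, 25 member peaks fell and 9 rose (14.3% and 12.0% of all peaks). From 72 h to 1 week, 26 rose and 14 fell (22.5% and 16.2% of all peaks). At 1 week, 35 peaks were lower than in NSPs and 16 were higher (33.6% and 33.7% of all peaks), so the share higher was below the background and the share lower was above it. With libraries scaled to their total reads, 25 member peaks were lower at 24 h than in NSPs, as were 12367 in place of 20490 of all peaks, and the median over all peaks moved from -0.07 to 0.11. Without NSP replicate 1 the counts were 35 lower and 14 higher at 24 h (23.7% and 25.2% of all peaks), and 36 lower and 18 higher at 1 week (33.6% and 34.6%). The 9 peaks higher at 72 h than at 24 h became 2 without 72 h replicate 3, 4 without 72 h replicate 1 or 2, and 5 without 24 h replicate 1 or 2. Over all peaks the 10688 rises became 8028, 7404 and 7890 without 72 h replicate 3, 1 and 2. They became 8164 and 8053 without 24 h replicate 1 and 2. The rises from 72 h to 1 week also moved with the scaling: by total reads, 8 member peaks rose and 26 fell. Of all 88919 peaks, 7965 then rose and 30033 fell, in place of 20035 and 14383. The median over all peaks moved from 0.02 to -0.31.

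The peak at the start of each gene had its highest mean in NSPs for all 10 genes, and its lowest mean at 72 h for 6, at 1 week for 3 and at 72 h with TNF for 1. The share of all gene-start peaks with this order was not counted. Their median difference was -0.29 from NSPs to 24 h and 0.39 from 72 h to 1 week. For Hes1 and Hey1, whose strand is not in the gene table used, this is the peak at the nearest gene end. Of the 10 peaks, 9 were lower at 24 h than in NSPs and none was higher, and Notch3 missed the threshold (log2 difference -0.41, SE 0.18, limma adjusted p = 0.055). Gene-start peaks as a whole leaned the same way, with 40.8% lower and 6.15% higher. From 24 h to 72 h, 7 of the 10 fell and none rose (21.9% and 8.17% of gene-start peaks). From 72 h to 1 week, 5 rose (Notch1, Notch2, Hes1, Hey1 and Hey2) and 2 fell (Dll3 and Hes5), while 54.1% of gene-start peaks rose and 6.14% fell. Each of these 5 rises was lost with loess offsets, and with total-read scaling all but that of Hey2 were lost. At 1 week 7 of the 10 start peaks were still below NSPs (28.3% of gene-start peaks), the exceptions being Notch1, Notch2 and Hey2. Without NSP replicate 1, 6 start peaks were lower at 24 h, as Notch1, Notch2 and Hey2 lost their call, and 7 were lower at 1 week.

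**Figure D1:**
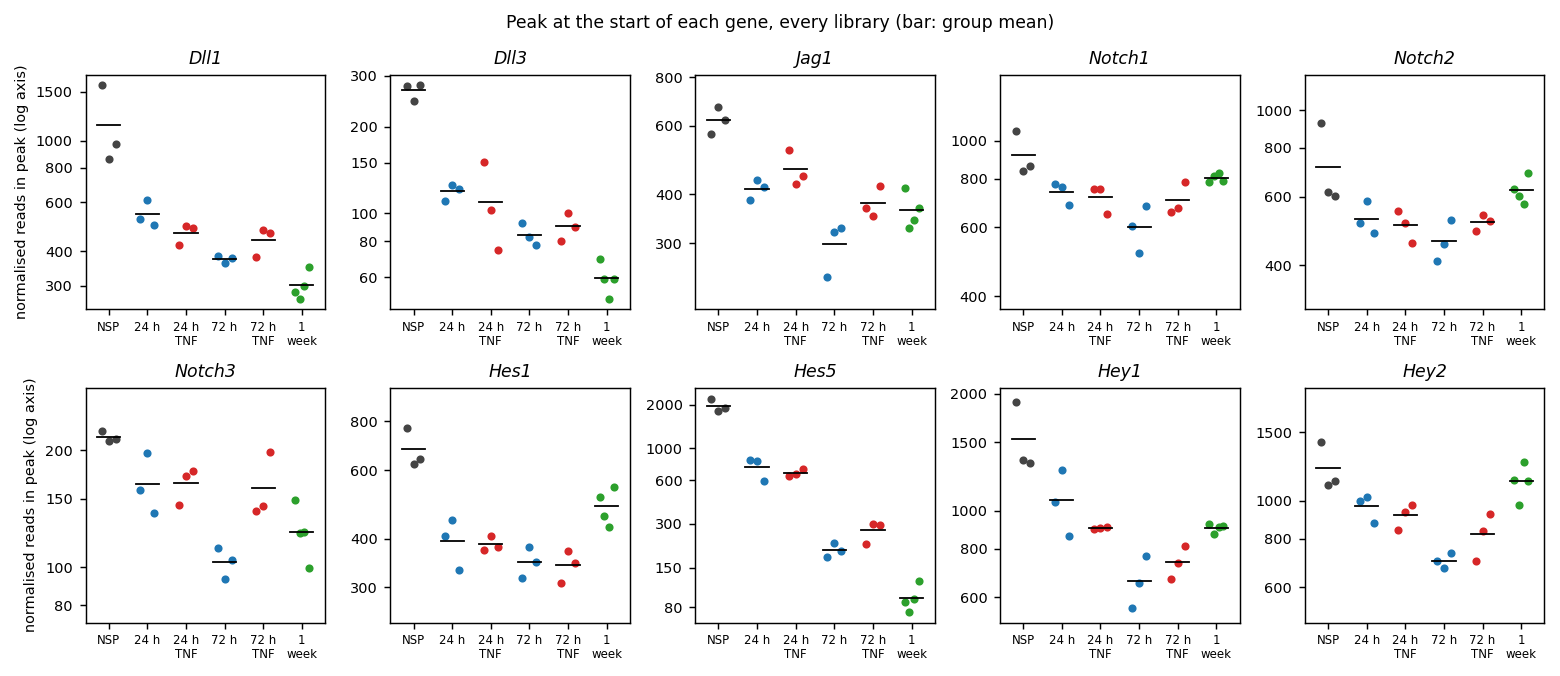
Normalised reads (log axis) in the peak at the start of each of the 10 genes, with a point for every library and a bar for the group mean, from NSPs at the left to 1 week at the right, each TNF group following its control. The Hes5 panel runs from 1809 to 2209 in NSPs down to 74.0 to 121 at 1 week, whereas the Hey2 panel returns to 978 to 1257 at 1 week.

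**Figure D2:**
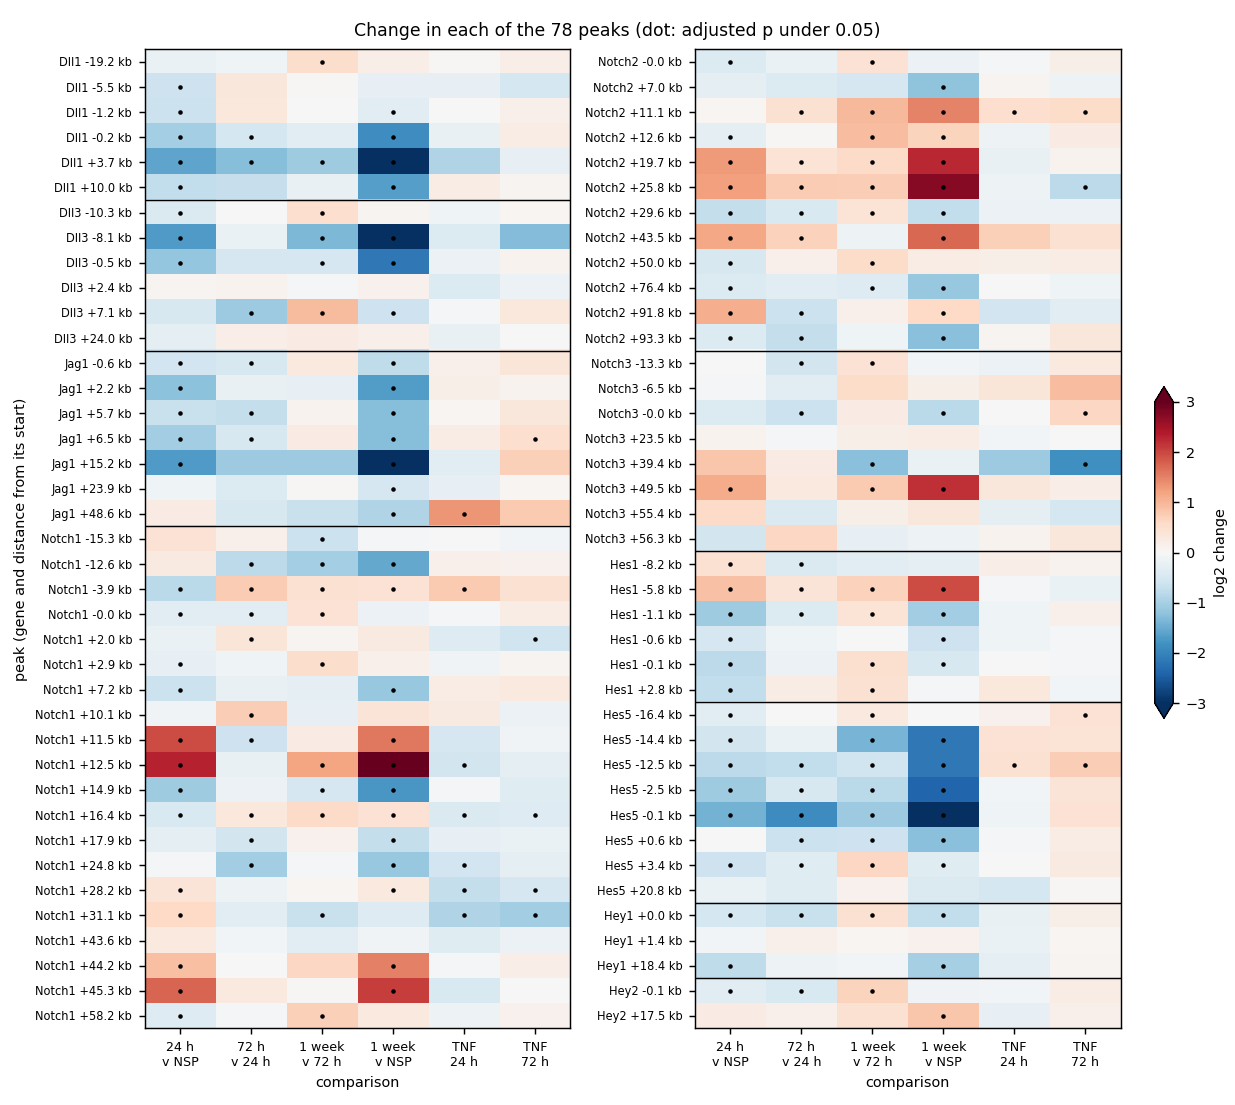
Log2 difference of each of the 78 peaks (rows, labelled by gene and distance in kb from its start) in 6 comparisons (columns), blue for lower and red for higher, with a dot where the limma adjusted p was under 0.05. Dots are dense in the 4 columns of time and sparse in the 2 columns of TNF, where 9 peaks were called at 24 h and 11 at 72 h.

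The ligand genes lost accessibility at most of their peaks. Of their 19 peaks, 13 were lower at 24 h than in NSPs and none was higher (68.4% lower, against 23.0% of all peaks), and at 1 week 14 were lower and none was higher (73.7% lower, against 33.6% of all peaks), with a median difference of -0.91. Without NSP replicate 1 the count at 1 week was 13 lower and none higher. These peaks gave 6 falls and no rise from 24 h to 72 h (31.6% fell, against 14.3% of all peaks). From 72 h to 1 week they gave 3 of each, or 15.8%, near the 16.2% of all peaks for falls and below the 22.5% for rises.

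Dll1 encodes a Delta-like ligand carried by cells committing to a neuronal fate. Its start peak (chr17:15375769-15376269) held 1587, 862 and 975 normalised reads in the NSP libraries, 521, 612 and 496 at 24 h, 383, 364 and 377 at 72 h, and 284, 269.6, 299 and 352 at 1 week. These groups without TNF did not overlap, each being lower than the one before. The peak fell by 1.02 on the log2 scale from NSPs to 24 h (SE 0.16, adjusted p = 4.24e-06) and again from 24 h to 72 h (log2 difference -0.53, SE 0.16, adjusted p = 0.0134), and the difference of -0.32 from 72 h to 1 week missed the threshold (SE 0.15, adjusted p = 0.0835). Without 24 h replicate 2 the 72 h call was lost, and its adjusted p ran from 0.00133 to 0.0777 over the alternatives. Inside the gene, 3.7 kb after the start (chr17:15371902-15372402), the peak fell further: 259, 155 and 194 normalised reads in NSPs, 62.6, 70.8 and 65.3 at 24 h, 23.2, 23.9 and 34.4 at 72 h, and 11.5, 9.35, 13.2 and 16.1 at 1 week. At 1 week it was far below NSPs (log2 difference -3.91, SE 0.29, adjusted p = 1.15e-12). The peak 19.2 kb before the start lies within 1 kb of an end of Fam120b, and it alone of the Dll1 peaks rose from 72 h to 1 week (675 ± 57.0 to 967 ± 49.8 normalised reads, mean ± SD, n = 3 and 4), a call lost with total-read scaling and with loess offsets.

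Dll3 encodes a divergent Delta-like ligand that acts mainly inside the cell that makes it. Its start peak (chr7:28302084-28302584) held 277, 245 and 278 normalised reads in NSPs, 110.4, 125 and 122 at 24 h, 92.6, 82.5 and 77.8 at 72 h, and 69.7, 59.2, 50.6 and 59.0 at 1 week. The NSP libraries lay above all the others. The start peak was lower than in NSPs at 24 h (log2 difference -1.16, SE 0.20, adjusted p = 2.86e-05) and at 1 week (log2 difference -2.15, SE 0.19, adjusted p = 4.54e-11). Its further fall from 72 h to 1 week (log2 difference -0.50, SE 0.19, adjusted p = 0.0384) was lost without any 1 of 6 of the 7 libraries compared, all but 1 week replicate 1, with adjusted p from 0.00136 to 0.134 over the alternatives. A small peak 8.1 kb before the start, inside Timm50, went from 124.4, 73.0 and 63.8 normalised reads in NSPs to 4.41, 5.46, 13.2 and 11.8 at 1 week (log2 difference -3.24, SE 0.44, adjusted p = 1.96e-07). Inside Dll3, 7.1 kb after the start, the order differed: 55.6 ± 20.3 normalised reads at 72 h was the lowest mean, and the peak rose to 104 ± 13.9 at 1 week (log2 difference 0.95, SE 0.23, adjusted p = 0.00152).

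Jag1 encodes a Jagged ligand expressed by neural progenitors and glia. At 1 week all 7 of its peaks were lower than in NSPs, as were 33.6% of all peaks. The highest, 6.5 kb after the start (chr2:137109768-137110268), held 1460.4, 1333 and 1753 normalised reads in NSPs, 765, 816 and 636 at 24 h, 495, 474 and 628 at 72 h, and 679.8, 559.6, 658 and 597 at 1 week. The NSP libraries stood clear of the rest, and the 72 h and 1 week libraries overlapped. It was lower at 1 week than in NSPs (log2 difference -1.27, SE 0.12, adjusted p = 1.94e-10). The start peak fell from 621 ± 49.5 normalised reads in NSPs to 413 ± 25.1 at 24 h and 298 ± 45.8 at 72 h (n = 3 each), and was 364 ± 38.5 at 1 week (n = 4). The largest drop in the gene was in a peak of few reads 15.2 kb after the start, chosen for mention after its values were seen. It held 134, 213 and 234 normalised reads in NSPs and 11.5, 2.34, 28.6 and 20.4 at 1 week (log2 difference -3.89, SE 0.44, adjusted p = 8.14e-09). The weakest calls, at the peaks 48.6 and 23.9 kb after the start, were each lost without 1 library: NSP replicate 2, NSP replicate 3 or 1 week replicate 3 for the former (adjusted p 0.00902 to 0.228 over the alternatives), and NSP replicate 1 or 1 week replicate 2 for the latter (0.00868 to 0.0737). The call of the Jag1 start peak at 72 h against 24 h was lost without 72 h replicate 1 (adjusted p 0.0064 to 0.076 over the alternatives).

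The receptor genes had calls in both directions. From 24 h to 72 h their shares of rises and of falls were both above those of all peaks. The share of rises from 72 h to 1 week was above that of all peaks too. Of their 40 peaks, 11 were higher and 13 lower at 24 h than in NSPs (27.5% and 32.5%, against 24.2% and 23.0% of all peaks), and 14 were higher and 10 lower at 1 week (35% and 25%, against 33.7% and 33.6%). Without NSP replicate 1 these counts were 13 higher and 10 lower at 24 h, and 16 higher and 11 lower at 1 week. From 24 h to 72 h 8 receptor peaks rose and 10 fell (20% and 25%, against 12.0% and 14.3% of all peaks), and from 72 h to 1 week 15 rose and 6 fell (37.5% and 15%, against 22.5% and 16.2%). At 1 week the median difference from NSPs was 0.20 for the receptors and 0.01 for all peaks. Of the 14 receptor peaks higher at 1 week, 12 were among the 28 in a gene body and 2 among the 12 in a flank. The 10 lower peaks lay likewise, with 8 in a body and 2 in a flank. Shares of all peaks by place were not worked out, so a lean towards gene bodies was not tested.

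**Figure D3:**
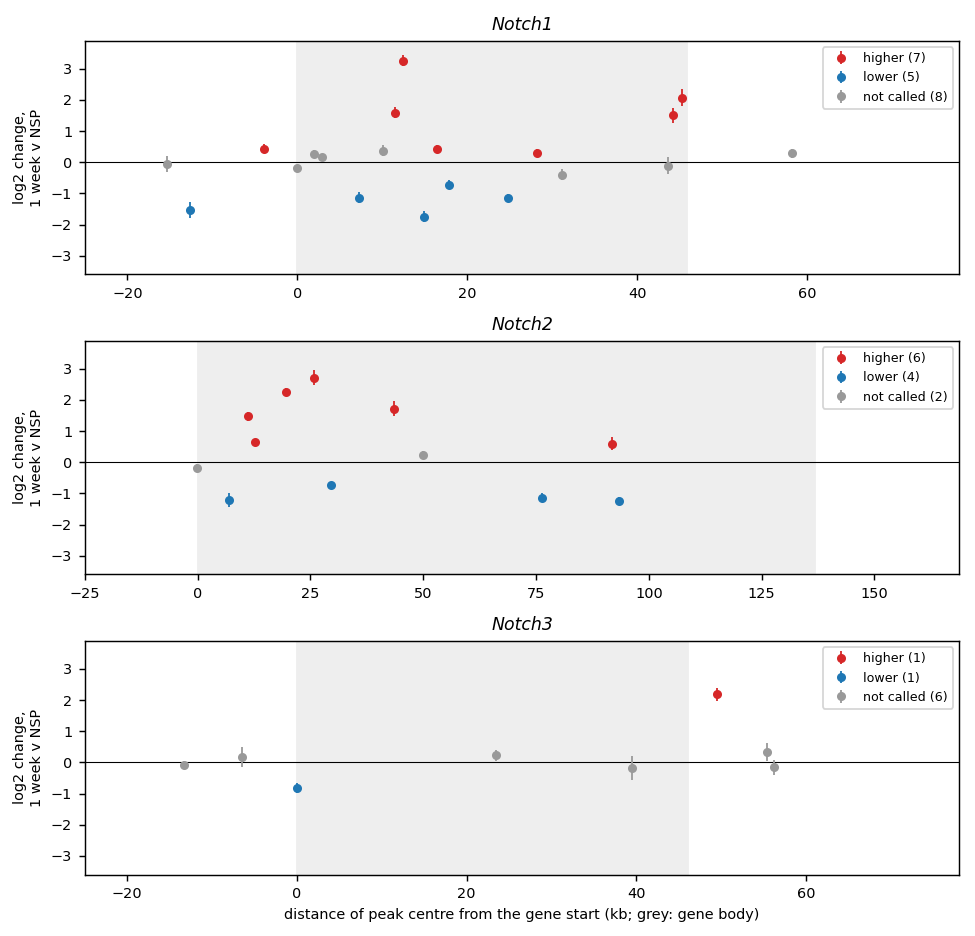
Log2 difference between 1 week and NSPs (vertical axis, with SE bars) for every peak of Notch1, Notch2 and Notch3 by its distance from the gene start in kb (horizontal axis, grey band for the gene body), coloured by call. Peaks higher at 1 week lie within the bodies of Notch1 and Notch2 beside peaks that were lower, with Notch1 peaks from -1.74 to 3.26.

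Notch1 encodes a receptor that maintains embryonic neural stem cells. Its start peak (chr2:26503573-26504073) held 1059.7, 835 and 864 normalised reads in NSPs, 776, 761 and 686 at 24 h, 606, 517 and 679 at 72 h, and 784, 812, 825 and 791 at 1 week. The 24 h libraries lay below the NSP libraries and above the 72 h libraries, and the 1 week libraries lay above both 24 h and 72 h. The falls were small (24 h: log2 difference -0.30, SE 0.12, adjusted p = 0.0331, and 72 h: -0.31, SE 0.12, adjusted p = 0.0497). The former was lost without NSP replicate 1 or 24 h replicate 3 (adjusted p 0.0222 to 0.454 over the alternatives), and the latter without 24 h replicate 1 or 2 or 72 h replicate 1 or 2 (0.0244 to 0.259). The rise to 1 week (log2 difference 0.43, SE 0.11, adjusted p = 0.0029) turned to -0.05 with loess offsets.

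Inside Notch1 lay the peak with the highest log2 difference of the set between 1 week and NSPs. The peak 12.5 kb after the start (chr2:26491121-26491621) held 57.8, 46.6 and 31.9 normalised reads in NSPs, 214, 227 and 227 at 24 h, 228, 188 and 158 at 72 h, and 399, 444, 473 and 415 at 1 week. It was above every NSP library at each later time, and at 1 week above every other library. The rise from NSPs was 2.31 on the log2 scale at 24 h (SE 0.18, adjusted p = 1.21e-11) and 3.26 at 1 week (SE 0.17, adjusted p = 2.05e-16). Beside it, the peak 11.5 kb after the start rose at 24 h to 224.3, 258 and 318 normalised reads from 75.4, 84.3 and 47.2, and then fell to 175, 175 and 163 at 72 h. That fall (log2 difference -0.62, SE 0.18, adjusted p = 0.0105) was lost without 24 h replicate 3 (adjusted p 0.0017 to 0.071 over the alternatives). The peak 45.3 kb after the start, near the far end of the gene, rose from 20.4, 68.3 and 65.8 normalised reads in NSPs to 155, 122 and 195 at 24 h (log2 difference 1.75, SE 0.29, adjusted p = 1.04e-05) and was at 170.2, 195, 257 and 166 at 1 week. Both of these peaks were chosen for mention after their values were seen. In the same gene, the peak 14.9 kb after the start fell from 255 ± 21.0 normalised reads in NSPs to 122 ± 22.5 at 24 h and 76.1 ± 13.9 at 1 week (log2 difference -1.74 at 1 week, SE 0.18, adjusted p = 1.39e-09). The peak 24.8 kb after the start was 367 ± 30.3 in NSPs and 349 ± 17.7 at 24 h, and fell at 72 h to 170.1 ± 11.8 (log2 difference -1.03, SE 0.15, adjusted p = 9.98e-06). The peak 3.9 kb before the start dipped instead: 401 ± 107 normalised reads in NSPs, 226 ± 34.5 at 24 h, 384 ± 18.97 at 72 h and 531 ± 46.3 at 1 week, with the fall at 24 h (log2 difference -0.80, SE 0.15, adjusted p = 9.23e-05) and the rise at 72 h (log2 difference 0.77, SE 0.15, adjusted p = 0.000472) both called.

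Notch2 encodes a receptor associated with quiescent neural stem cells. At the start (chr3:98013240-98013740), the peak that holds the sequence printed above, the libraries held 926, 615 and 603 normalised reads in NSPs, 512, 584 and 483 at 24 h, 410.5, 452 and 523 at 72 h, and 627, 602, 574 and 689 at 1 week. NSP and 1 week libraries overlapped. The fall at 24 h (log2 difference -0.42, SE 0.14, adjusted p = 0.0137) was lost without NSP replicate 1 or 24 h replicate 3 (adjusted p 0.00497 to 0.147 over the alternatives), and the rise to 1 week (log2 difference 0.44, SE 0.13, adjusted p = 0.00836) was lost without 72 h replicate 1 (0.000975 to 0.872). Of the 12 Notch2 peaks, 6 were higher and 4 lower at 1 week than in NSPs (50% and 33.3%, against 33.7% and 33.6% of all peaks). The peak 19.7 kb after the start (chr3:98032949-98033449) held 80.0, 88.6 and 67.8 normalised reads in NSPs, 195, 174 and 203 at 24 h, 270.2, 242 and 252 at 72 h, and 415, 356, 401 and 352 at 1 week. None of these groups overlapped, and each was higher than the one before. It was 2.26 higher at 1 week than in NSPs (SE 0.13, adjusted p = 2.28e-15). The peak 25.8 kb after the start went the same way, from 28.7 ± 1.95 normalised reads in NSPs to 195 ± 14.0 at 1 week (log2 difference 2.72, SE 0.23, adjusted p = 2.25e-11). The highest Notch2 peak, 12.6 kb after the start, rose from 799.7 ± 108 normalised reads at 72 h to 1510.3 ± 92.5 at 1 week (log2 difference 0.92, SE 0.10, adjusted p = 8.81e-08). Farther into the gene, the peak 93.3 kb after the start fell from 569 ± 80.0 normalised reads in NSPs to 259 ± 7.64 at 72 h and 239 ± 19.5 at 1 week (log2 difference -1.24 from NSPs to 1 week, SE 0.12, adjusted p = 1.84e-10).

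Notch3 encodes a receptor best known from mural cells and also made by neural progenitors. Of its 8 peaks, 1 was called at 24 h against NSPs, as higher (12.5%, against 24.2% of all peaks). At 1 week 1 was higher and 1 lower (12.5% each, against 33.7% and 33.6% of all peaks). The start peak (chr17:32166659-32167159) held 223.7, 212 and 213 normalised reads in NSPs, 158, 196 and 138 at 24 h, 112, 93.3 and 105 at 72 h, and 149, 122, 123 and 99.7 at 1 week. The NSP libraries were above all others, and 72 h and 1 week overlapped. The fall from 24 h to 72 h (log2 difference -0.65, SE 0.18, adjusted p = 0.00664) was lost without 24 h replicate 2 (adjusted p 0.00472 to 0.0545 over the alternatives). Past the far end of the gene, 49.5 kb after the start, a peak rose from 21.1 ± 3.31 normalised reads in NSPs to 46.2 ± 4.62 at 24 h and 98.6 ± 9.24 at 1 week (log2 difference 2.18 at 1 week, SE 0.21, adjusted p = 3.37e-10). The highest Notch3 peak, 13.3 kb before the start, was 701 ± 197 normalised reads in NSPs, 689.8 ± 29.0 at 24 h and 471 ± 6.04 at 72 h, and 642 ± 68.4 at 1 week. Its fall at 72 h was called (log2 difference -0.55, SE 0.14, adjusted p = 0.00516).

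The effector genes were mostly below their NSP level, and the lowest log2 difference of the set, between 1 week and NSPs, was at Hes5. Of their 19 peaks, 13 were lower and 2 higher at 24 h than in NSPs (68.4% lower, where all peaks were 23.0% lower and 24.2% higher), and 11 were lower and 2 higher at 1 week (57.9% lower, where all peaks were 33.6% lower and 33.7% higher). Without NSP replicate 1 these counts were 12 lower and 1 higher at 24 h, and 12 lower and 2 higher at 1 week. From 24 h to 72 h 9 effector peaks fell and 1 rose (47.4% and 5.26%, against 14.3% and 12.0% of all peaks), and from 72 h to 1 week 8 rose and 5 fell (42.1% and 26.3%, against 22.5% and 16.2%).

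Hes5 encodes a repressor that is the classic Notch readout in embryonic neural stem cells. Its start peak (chr4:154960534-154961034), which holds both GTGGGAA matches, had 2209, 1809 and 1909.7 normalised reads in NSPs, 827, 816 and 590.0 at 24 h, 176, 221 and 195 at 72 h, and 86.4, 74.0, 90.2 and 121 at 1 week. No library of a group overlapped with the group before it. The log2 difference was -1.42 from NSPs to 24 h (SE 0.16, adjusted p = 2.14e-08), -1.90 from 24 h to 72 h (SE 0.16, adjusted p = 5.38e-10) and -1.10 from 72 h to 1 week (SE 0.15, adjusted p = 2.78e-06). From NSPs to 1 week the log2 difference was -4.41 (SE 0.15, adjusted p = 1.37e-20), the lowest of the 78 peaks, and the mean at 1 week was 0.047 of the NSP mean. Of the 8 Hes5 peaks, 6 were lower at 1 week than in NSPs and none was higher (75% lower, where all peaks were 33.6% lower and 33.7% higher). The peak 16.4 kb before the start was 575 ± 45.1 normalised reads in NSPs and 567 ± 39.1 at 1 week. The peak 2.5 kb before the start, chosen for mention after its values were seen, held 498 ± 32.1 normalised reads in NSPs, 237 ± 28.1 at 24 h, 168 ± 3.75 at 72 h and 95.4 ± 11.8 at 1 week. Its fall at 72 h was lost without 24 h replicate 1 (adjusted p 0.0112 to 0.0865 over the alternatives). The peak 12.5 kb before the start (chr4:154948167-154948667) held 908, 967 and 977 normalised reads in NSPs, 566, 577 and 504 at 24 h, 308, 304 and 371 at 72 h, and 183, 192, 253 and 243 at 1 week, again with no overlap (log2 difference -2.13 from NSPs to 1 week, SE 0.12, adjusted p = 9.66e-16). The peak 14.4 kb before the start was 137 ± 19.3 normalised reads at 72 h and fell to 51.8 ± 10.2 at 1 week (log2 difference -1.40, SE 0.17, adjusted p = 4.75e-07). The peak 3.4 kb after the start behaved differently, falling to 634 ± 24.3 at 72 h and rising to 982 ± 61.4 at 1 week (log2 difference 0.63, SE 0.09, adjusted p = 6.52e-06). That peak lies in Pank4, within 1 kb of its end, and its rise was lost with loess offsets.

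**Figure D4:**
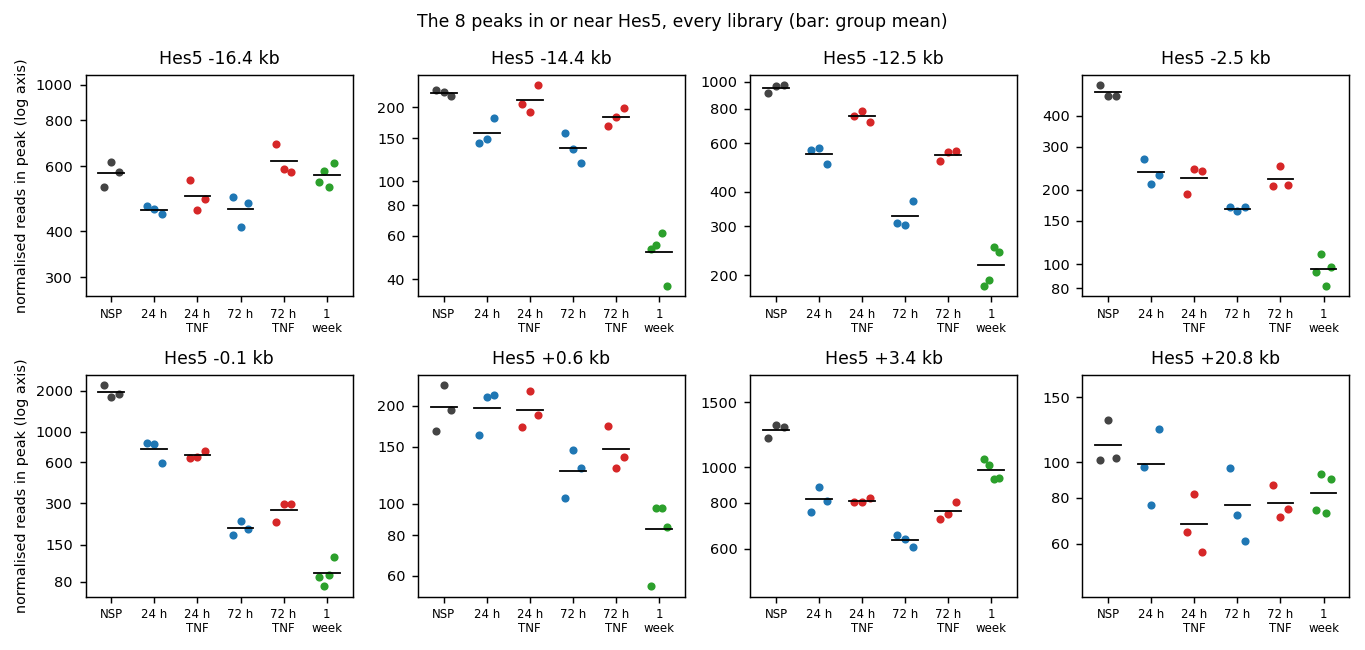
Normalised reads (log axis) in each of the 8 peaks in or near Hes5, a panel per peak labelled by its distance from the start in kb, with a point for every library and a bar for the group mean over the 6 groups. The start peak and the peaks 2.5 and 12.5 kb before it step down from NSPs to 1 week, and the peak 12.5 kb before the start is higher with TNF at 24 h (713 to 782) and 72 h (517 to 560.5) than without.

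Hes1 encodes a repressor that is made by neural stem cells, where its level oscillates, and that also responds to signals other than Notch. Its gene-end peak (chr16:30064992-30065492) held 770.5, 623 and 639 normalised reads in NSPs, 406, 446 and 333 at 24 h, 318, 382 and 349 at 72 h, and 513, 457, 429 and 543 at 1 week. NSP libraries were above all others, and 1 week libraries were above those at 72 h. It was lower than in NSPs at 24 h (log2 difference -0.78, SE 0.13, adjusted p = 1.28e-05) and at 1 week (log2 difference -0.48, SE 0.12, adjusted p = 0.000963). A peak 5.8 kb away on the lower-coordinate side (chr16:30059270-30059770) did the opposite: 149, 204 and 183 normalised reads in NSPs, 271, 330.4 and 393 at 24 h, 461, 401 and 423 at 72 h, and 711, 714, 702 and 629 at 1 week. Each group lay above the one before it. It was 1.95 higher at 1 week than in NSPs (SE 0.13, adjusted p = 1.07e-13), and the step from 24 h to 72 h (log2 difference 0.38, SE 0.14, adjusted p = 0.0427) was lost without 5 of the 6 libraries compared, all but 24 h replicate 3 (adjusted p 0.013 to 0.254 over the alternatives). The peak 1.1 kb away, the highest of the gene, fell from 1163 ± 240.1 normalised reads in NSPs to 552 ± 70.3 at 24 h (log2 difference -1.06, SE 0.14, adjusted p = 5.49e-07).

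Hey1 and Hey2 encode related repressors, with roles in neural progenitors and in the developing heart and vessels. The Hey1 gene-end peak (chr3:8666834-8667334) held 1899.7, 1351 and 1326 normalised reads in NSPs, 1055, 1273 and 865 at 24 h, 564, 652 and 769 at 72 h, and 928, 875, 909 and 914 at 1 week. It fell at 24 h (log2 difference -0.52, SE 0.14, adjusted p = 0.00257) and at 72 h (log2 difference -0.68, SE 0.14, adjusted p = 0.000503), with no overlap between the groups. Its rise to 1 week (log2 difference 0.47, SE 0.13, adjusted p = 0.00487) was lost without 72 h replicate 1 (adjusted p 0.000341 to 0.616 over the alternatives) and turned to -0.07 with loess offsets. This peak also lies at an end of the predicted gene LOC115489673. The Hey2 start peak (chr10:30842655-30843155), which holds the Hey2 sequence above, had 1414, 1097 and 1124 normalised reads in NSPs, 1001, 1024 and 879 at 24 h, 700.0, 671 and 734 at 72 h, and 1131, 978, 1257 and 1121 at 1 week. The 1 week libraries overlapped with the NSP libraries and lay above all those at 72 h. It fell at 72 h (log2 difference -0.46, SE 0.12, adjusted p = 0.00522) and rose at 1 week (log2 difference 0.67, SE 0.11, adjusted p = 3.57e-05, lost with loess offsets), and its fall at 24 h (log2 difference -0.32, adjusted p = 0.0305) was lost without NSP replicate 1 or 24 h replicate 3 (0.0204 to 0.471 over the alternatives). At 1 week the mean of the Hey2 start peak was 0.925 of its NSP mean, while that of the Hes5 start peak, with the same GTGGGAA letters, was 0.047 of it.

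With TNF, 15 of the 78 peaks were called at either time, in both directions. At 24 h, 4 of the 78 peaks were higher and 5 lower with TNF than without (7.06% and 3.53% of all peaks), and at 72 h 5 were higher and 6 lower (6.24% and 5.55% of all peaks). As shares of the members these counts were 5.13% higher and 6.41% lower at 24 h, and 6.41% higher and 7.69% lower at 72 h, near the background but for the lower calls at 24 h. With only the groups compared in the fit, 10 were lower at 24 h and 13 higher at 72 h, while the counts over all 88919 peaks also went up, from 3136 to 5750 lower at 24 h and from 5551 to 8739 higher at 72 h. With total-read scaling 3 were higher at 72 h, as were 4221 in place of 5551 of all peaks. No peak of Dll1, Dll3, Hes1, Hey1 or Hey2 was called at either time. Over the 78 peaks, 18 at 24 h and 24 at 72 h had an unadjusted p under 0.05, as did 22.4% and 24.8% of all peaks. At 24 h the higher count became 1 without 24 h replicate 3 and 2 without 24 h replicate 1 or any 1 of the TNF libraries, and the lower count became 2 without 24 h TNF replicate 1 and 3 without 24 h replicate 2. Over all peaks the 6274 higher became 5629 without 24 h replicate 3 and 4491 without 24 h replicate 1. Without a TNF library at 24 h they became 3860 to 4806. The 3136 lower became 1962 without 24 h TNF replicate 1 and 1864 without 24 h replicate 2. At 72 h the higher count became 2 without 72 h replicate 2 and 3 without 72 h replicate 1 or 72 h TNF replicate 3. Over all peaks the 5551 higher became 4090 without 72 h replicate 2. They became 3782 without 72 h replicate 1 and 3602 without 72 h TNF replicate 3. Of the 15 peaks called at either time, 3 were lower at both times, 2 were higher at both, and 10 were called at 1 time only. The difference between the TNF effects at 72 h and 24 h was called by limma for none of the 78 peaks (smallest adjusted p = 0.557), against 0.00112% of all peaks. At an unadjusted p under 0.05 there were 6 of the 78 peaks, against 7.51% of all peaks. So none of the 78 peaks was shown to respond differently at the 2 times. Beside these results, the astrocyte marker sum was 1148 to 1278 with TNF and 1404 to 1658 without at 24 h, and 1165 to 1237 with TNF and 1560 to 1671 without at 72 h, and its part in them was not tested. The markers in that sum differed. At 72 h the means without and with TNF were 529 and 246 for Gfap and 282 and 194 for S100b. For Slc1a2 they were 265 and 289.

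**Figure D5:**
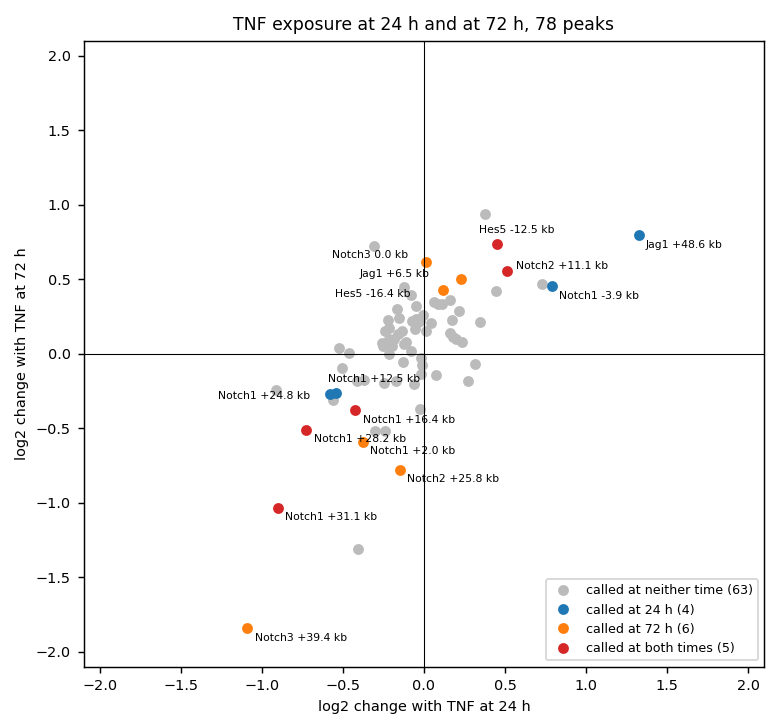
Log2 difference with TNF at 24 h (horizontal axis) and 72 h (vertical axis) for each of the 78 peaks, coloured by the time at which a peak was called. The 3 Notch1 peaks called at both times sit in the lower left, and the Hes5 peak 12.5 kb before the start and the Notch2 peak 11.1 kb after the start sit in the upper right.

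The 3 peaks lower with TNF at both times all lay inside Notch1. The peak 31.1 kb after the start (chr2:26472422-26472922) held 197, 181 and 170.0 normalised reads at 24 h without TNF and 92.9, 112 and 88.3 with it, and 143, 158 and 136 at 72 h without and 67.1, 68.0 and 76.8 with it. No library with TNF overlapped with those without. The log2 difference was -0.90 at 24 h (SE 0.19, adjusted p = 0.00201) and -1.03 at 72 h (SE 0.19, adjusted p = 0.000479). The peak 28.2 kb after the start (chr2:26475385-26475885) held 710.4, 671 and 624 normalised reads at 24 h without TNF and 419, 456 and 344 with it, and 656, 522 and 641 at 72 h without and 389, 436 and 448 with it. It too was lower in every TNF library (log2 difference -0.73 at 24 h, SE 0.12, adjusted p = 0.000126, and -0.51 at 72 h, SE 0.12, adjusted p = 0.00469). Both of these peaks kept their TNF calls in every alternative tried. The peak 16.4 kb after the start, chosen for mention after its values were seen, went from 826 ± 70.2 to 615 ± 32.2 normalised reads at 24 h and from 1027 ± 24.7 to 792 ± 85.2 at 72 h. Its calls (adjusted p = 0.00986 and 0.0194) were lost without 24 h replicate 2 or 24 h TNF replicate 1 at 24 h (0.002 to 0.07 over the alternatives), and without 72 h replicate 1 or 3 or 72 h TNF replicate 1 or 2 at 72 h (0.000123 to 0.122).

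Other Notch1 peaks were called at 1 time. The peak 3.9 kb before the start was higher with TNF at 24 h, with 194, 223 and 262 normalised reads without TNF and 437, 335 and 401 with it (log2 difference 0.79, SE 0.15, adjusted p = 0.000803), and at 72 h the difference of 0.45 missed the threshold (SE 0.15, adjusted p = 0.0534), with every TNF library above every library without. The peak 24.8 kb after the start was lower at 24 h (349 ± 17.7 without TNF and 235 ± 38.2 with it, log2 difference -0.58, adjusted p = 0.0105), a call lost without 24 h TNF replicate 1 (0.00174 to 0.0799 over the alternatives). The peak 12.5 kb after the start, which had risen most with time, was lower at 24 h (223 ± 7.43 and 152 ± 2.15, adjusted p = 0.0472), and that call was lost without any 1 of the 6 libraries (0.00719 to 0.123). The peak 2.0 kb after the start, chosen after its values were seen, was lower at 72 h, from 437 ± 8.31 to 289.8 ± 20.8 normalised reads (log2 difference -0.59, SE 0.13, adjusted p = 0.00308). The Notch1 start did not pass at either time (log2 difference -0.05 at 24 h and 0.23 at 72 h, SE 0.12 each, adjusted p = 0.876 and 0.216).

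Hes5 held a peak that rose with TNF at both times. The peak 12.5 kb before its start held 566, 577 and 504 normalised reads at 24 h without TNF and 755, 782 and 713 with it, and 308, 304 and 371 at 72 h without and 517, 556 and 560.5 with it. Groups with and without TNF did not overlap at either time, and the levels with TNF stayed below those of the NSPs (908 to 977). The log2 difference was 0.45 at 24 h (SE 0.12, adjusted p = 0.0169) and 0.74 at 72 h (SE 0.12, adjusted p = 0.000167). The 24 h call was lost without 24 h replicate 3 or 24 h TNF replicate 1 or 2 (0.00226 to 0.0744 over the alternatives). The peak 16.4 kb before the start, chosen after its values were seen, rose with TNF at 72 h from 461 ± 43.8 to 621 ± 60.4 normalised reads (adjusted p = 0.0127), a call lost without 72 h replicate 2 or 72 h TNF replicate 1 (0.00477 to 0.088). The Hes5 start itself was not called: 827, 816 and 590.0 normalised reads without TNF against 647, 659 and 719.7 with it at 24 h (log2 difference -0.12, SE 0.16, adjusted p = 0.733), and 176, 221 and 195 against 218, 299 and 295 at 72 h (log2 difference 0.44, SE 0.16, adjusted p = 0.0691). The groups overlapped at both times. Without 72 h TNF replicate 1 the 72 h difference of the start passed the threshold (adjusted p = 0.0297).

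In Notch2, the peak 11.1 kb after the start (chr3:98024359-98024859) was higher with TNF at both times, with 150.3, 264 and 179.8 normalised reads without and 260.0, 320.0 and 251 with TNF at 24 h, and 261, 275 and 254 without and 452, 350.3 and 367 with TNF at 72 h. The groups overlapped at 24 h and did not at 72 h. The 24 h call (log2 difference 0.51, SE 0.16, adjusted p = 0.0379) was lost without 24 h replicate 1 or 3 or any 1 of the TNF libraries (0.00293 to 0.279 over the alternatives), and the 72 h call (log2 difference 0.56, SE 0.16, adjusted p = 0.0223) without 72 h replicate 1 or 3 or 72 h TNF replicate 1 (0.000742 to 0.132). The Notch2 start, with the kappa-B letters, was not called (log2 difference -0.06 at 24 h and 0.17 at 72 h, SE 0.14 each, adjusted p = 0.874 and 0.491). The peak 25.8 kb after the start was lower with TNF at 72 h (117 ± 9.96 and 68.7 ± 12.7), a call lost without any 1 of the 6 libraries (adjusted p = 0.0382, 0.00559 to 0.191 over the alternatives).

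Among the start peaks, that of Notch3 alone was called with TNF, at 72 h (3.45% of gene-start peaks were higher and 1.40% lower). It held 112, 93.3 and 105 normalised reads without TNF and 139, 143 and 198 with it, without overlap (log2 difference 0.61, SE 0.18, adjusted p = 0.0193), and the call was lost without 72 h replicate 2 or 72 h TNF replicate 3 (0.00864 to 0.155 over the alternatives). At 24 h its difference was 0.01 (SE 0.18, adjusted p = 0.983). No start peak of the 10 had an unadjusted p under 0.05 with TNF at 24 h, against 8.97% of all gene-start peaks. By adjusted p, 2.37% of gene-start peaks were called higher and 0.907% lower at 24 h. Inside Notch3, the peak 39.4 kb after the start was lower at 72 h, from 91.4, 70.6 and 70.1 normalised reads to 21.5, 34.0 and 12.0 (log2 difference -1.84, SE 0.41, adjusted p = 0.00285).

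Of the ligands, only Jag1 had peaks called with TNF. Past the far end of the gene and inside Slx4ip, the peak 48.6 kb after the Jag1 start was higher at 24 h, with 29.6, 51.6 and 28.3 normalised reads without TNF and 70.7, 66.8 and 152 with it (log2 difference 1.32, SE 0.37, adjusted p = 0.0186). The call was lost without 24 h replicate 1 or 3 or 24 h TNF replicate 3 (0.000879 to 0.181 over the alternatives). The peak 6.5 kb after the start rose with TNF at 72 h, from 495, 474 and 628 normalised reads to 684, 743 and 827, without overlap (log2 difference 0.50, SE 0.13, adjusted p = 0.00916), and the call was lost without 72 h replicate 1 or 2 or 72 h TNF replicate 3 (0.00143 to 0.0652).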

How the data were processed

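ATAC-seq was done on 19 libraries in 6 groups, assigned by their sample titles. Per the labels and the submitters' processing notes, the authors used FastQC, Trim Galore, Bowtie2, SAMtools and MACS2 with mm10. The methods of the study add removal of mitochondrial reads and blacklisted regions, HOMER annotation and DiffBind tests. Tool versions, the handling of duplicate reads, any transposase offset and the normalisation are not given in the sources used here, and an unshifted read would lie a few bases off within windows of 500 bp. The table the authors deposited holds 1 signal value per peak and library, on peaks shared by all libraries. Every value was a whole multiple of the library's smallest step (tolerance 0.02 reads), so the signal is reads divided by a size factor. The smallest value of each library was taken as 1 read, so no value could lie below it. Whether that value is 1 read or a floor set in processing was not established. Of recovered values from 2 to 20 reads, 61.8% were odd, so the reads may not be independent molecules. Depth was 9640256 to 39349111 reads in peaks.

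Differences were tested on log2(value + 1) with limma 3.58.1 in R 4.3.3 with a mean-variance trend, all 19 libraries in 1 fit on the 6 groups, after a filter at a minimum count of 10 that left 88919 of 90154 peaks. Benjamini-Hochberg adjustment covered all of them, with a threshold of 0.05. A count test had been planned had the table held raw counts, and edgeR 4.0.16 and DESeq2 1.42.0 on the recovered reads were run as alternatives. Other alternatives were total-read scaling, a pseudocount of 8, no filter, the replicate number as a block, only the groups compared, each library left out, a 5 kb window and, chosen after seeing the data, loess offsets and leaving out peaks within 1 kb of another gene's end. The fit was tested on simulated data. Replicates differed by more than sampling noise, with a lowest mean chi-square of 2.30. Gene limits, strands and promoters came from RefSeq (GRCm38.p6), and Hes1 and Hey1 have no strand there.

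Members and lists were chosen with earlier results of these data known. A rule picked 46 peaks. It took each gene's start peak (nearest, within 1 kb) and its highest other peak. Per comparison, it also took the called peak with the smallest p in each direction. Values are not given for all 46, and others named were marked as chosen after their values were seen. Those left out include the highest other peaks of Dll3, Notch1, Hey1 and Hey2, and went both ways. From NSPs to 1 week, the mean rose from 42.7 to 78.8 normalised reads 17.5 kb after the Hey2 start. It fell from 467 to 145 at 2.2 kb after the Jag1 start. The Hes1 peak 8.2 kb on the lower-coordinate side rose from 334 in NSPs to 454 at 24 h. No peak sequences were read, since no genome was used here.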

Additional observations from a re-analysis of the deposited data

Results flagged for a closer look

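In the 46 peaks picked by rule, the 4 libraries at 1 week were examined for a value far from the others. The Hes1 peak 5.8 kb on the lower-coordinate side held 629.4 normalised reads in replicate 4, while the other 3 libraries held 702 to 713.9. The gap was 0.859 of the range, past the 95% critical value of Dixon's test, which chance passes in about 1 in 20 groups. With or without that library the peak was higher at 1 week than in NSPs.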

How the results depend on the processing

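With total-read scaling, 25 member peaks were lower at 24 h than in NSPs, as were 12367 in place of 20490 of all peaks. At 1 week against 72 h, 8 were higher and 26 lower, as were 7965 and 30033 of all peaks. With TNF at 72 h 3 were higher, as were 4221 in place of 5551 of all peaks. The all-peak median went from -0.07 to 0.11 for 24 h against NSPs. For 1 week against 72 h it went from 0.02 to -0.31. With only the groups compared in the fit, 10 were lower with TNF at 24 h and 13 higher with TNF at 72 h, as were 5750 and 8739 of all peaks. With loess offsets 11 were higher at 1 week than at 72 h, as were 11572 in place of 20035 of all peaks. The rises of the Notch1 start peak and the Hey1 end peak then turned to -0.053 and -0.07. With a window of 5 kb (57 peaks), 9 were lower at 1 week than at 72 h, and 2 at 24 h and 3 at 72 h were higher with TNF. The causes were not tested, beyond the smaller number of peaks in the 5 kb window.

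With each library left out, counts ran from 11 to 14 higher and 31 to 38 lower at 24 h than in NSPs, 2 to 6 higher and 17 to 23 lower at 72 h than at 24 h, 21 to 27 higher and 10 to 15 lower at 1 week than at 72 h, 15 to 18 higher and 34 to 36 lower at 1 week than in NSPs, 1 to 4 higher and 2 to 5 lower with TNF at 24 h, and 2 to 6 higher and 4 to 5 lower with TNF at 72 h. Counts over all peaks moved too. Those higher at 72 h than at 24 h ran from 7404 to 9128, in place of 10688. Over 114 single-peak results, the other alternatives gave 968 values on the same side, 44 lost calls, 12 gained calls and 2 reversals, and leaving out a library gave 659, 64, 5 and 0.

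Replicate numbers did not pair the libraries (correlations of -0.045 to 0.107 over 45 same-number pairs, median 0.011). With the replicate block, 7 in place of 9 member peaks were higher at 72 h than at 24 h (10350 in place of 10688 of all peaks), and 4 named calls were lost. Numbers in the titles and in the library names differ for 72 h with TNF, and with those of the library names as a block 3 named calls were lost. Shallower libraries limit peaks of few reads, such as those near Jag1 15.2 kb and Dll3 8.1 kb from the start.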

Other observations

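The other genes of the pathway were described by the same rule. Of 34 such genes, 33 had a peak (Dlk1 had none) and 31 had a start peak, in 258 tested peaks. At 24 h 74 of these peaks were lower than in NSPs and 51 higher (28.7% and 19.8%, against 23.0% and 24.2% of all peaks), and 14 start peaks were lower and 1 higher (45.2% and 3.23%, near the 40.8% and 6.15% of all gene-start peaks). The 1 start peak that rose was that of Dtx3, a relative of the Deltex ubiquitin ligases (43.8 ± 6.98 normalised reads in NSPs and 112 ± 9.10 at 24 h, log2 difference 1.34, limma adjusted p = 1.61e-06). The start peak of Rbpj, the DNA-binding partner of the Notch intracellular part, fell at 24 h (1529 ± 82.1 to 1139 ± 172, log2 difference -0.43, adjusted p = 0.00273), and that of Mfng, which adds sugars to Notch, fell from 318 ± 40.7 to 145 ± 17.8 (log2 difference -1.13, adjusted p = 2.60e-06). From 72 h to 1 week 20 of the 31 start peaks rose and 2 fell (64.5% and 6.45%, against 54.1% and 6.14% of all gene-start peaks). With TNF no start peak of the 31 was called by limma at 24 h or 72 h, while 16 peaks were higher and 13 lower at 24 h (6.20% and 5.04%, against 7.06% and 3.53% of all peaks), and 15 higher and 20 lower at 72 h (5.81% and 7.75%, against 6.24% and 5.55%). The largest of these differences was at a peak past the end of Maml1, a coactivator of the RBPJ complex (2.75 at 24 h and 2.94 at 72 h), chosen for mention after its values were seen.

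The start peaks of other genes most like those of the members over the 19 libraries, as a description, were Tmem229a, Fam189a1 and Ror2 for Hes5 (Pearson r = 0.97 each), Nr2c2 for Hey2 (0.98), Rap1b for Hey1 (0.98), Zhx3 for Hes1 (0.96), Tfb2m and Cnst, which share a peak, for Notch2 (0.96), Zfp668 for Notch1 (0.95), Bmper for Notch3 (0.88), Ero1a for Jag1 (0.95), Spag9 for Dll3 (0.95) and Armcx4 for Dll1 (0.94). These points share the 6 groups and the depth of the libraries.

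Near the 20 kb limit, the members just inside were the Dll1 peak 19.227 kb outside the gene (795 normalised reads over the group means), the Hes5 peak at 19.353 kb (85.7) and the Hey1 peak at 18.359 kb (159). Just outside lay peaks near Notch2 at 20.123 kb (44.8), near Hey1 at 21.168 kb (734), and near Hey2 at 21.279 kb (226) and 21.98 kb (34.4).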
